A study of Mus musculus with 6 samples.

Results

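The integrated stress response is described here through 10 mouse genes chosen by name for their place in the pathway. They are the kinase genes Eif2ak3 and Eif2ak4, the transcription factor genes Atf4, Atf5, Ddit3 and Cebpb, and the response genes Trib3, Sesn2, Chac1 and Ppp1r15a. All 10 were among the 22939 genes of the count table and all 10 passed the filter on low counts. RNA was sequenced from 3 libraries of control regulatory T cells (ctrl-Treg cells) and 3 libraries of regulatory T cells cultured with sorafenib (Sora-Treg cells). Sorafenib (Sora) is an inhibitor of RAF and of several receptor tyrosine kinases that is used against liver cancer. In both groups, naive CD4+ T cells came from C57BL/6J mice whose Foxp3 locus carries a GFP reporter, and were differentiated in culture. They received antibodies against CD3 and CD28, TGF-β1, and antibodies that block IFN-γ and IL4, and GFP+ cells were then sorted. Sora was added to the culture of the treated group. The concentration and the age of the mice are not given in the labels, nor is it stated whether the libraries of a group came from separate cultures or animals, so the p-values may measure technical spread alone.

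Cells under stress slow protein synthesis by phosphorylating the initiation factor eIF2. Each of its kinases answers to a different signal. PERK (Eif2ak3) senses misfolded protein in the endoplasmic reticulum, and GCN2 (Eif2ak4) senses uncharged tRNA when amino acids run short. Phosphorylated eIF2 lowers translation of most mRNAs but raises that of Atf4, Atf5 and Ddit3, whose short upstream reading frames hold them back otherwise. ATF4 then pairs with other basic leucine zipper (bZIP) proteins and turns on genes for amino acid synthesis, transport and tRNA charging. It also drives its own brakes, among them TRIB3 and GADD34 (Ppp1r15a), the latter a phosphatase subunit that removes the phosphate from eIF2. T cells use the pathway when amino acids are scarce and during the growth that follows activation. RNA-seq reads mRNA, so neither eIF2 phosphorylation nor the translation of Atf4 was measured.

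The 10 genes did not move as one block in Sora-Treg cells. The response genes Chac1 and Sesn2 decreased by 63.0% and 54.9%. Trib3 decreased by 34.9%, Atf5 decreased by 34.3%, Cebpb decreased by 30.02%, and Atf4 decreased by 7.03%. Eif2ak3 and Ppp1r15a rose, and Ddit3 and Eif2ak4 were not called. By the edgeR quasi-likelihood test, 8 of 10 genes had an adjusted p under 0.05, of which 6 were lower and 2 higher. Over all 13463 genes tested the same rule called 59.6%, with 29.9% lower and 29.7% higher. Calls were thus common in this comparison, and about as many genes rose as fell. The median log2 fold change (log2FC, Sora-Treg over ctrl-Treg) was -0.31 over the 10 genes and -0.00 over all genes tested.

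Total counts per library ranged from 30727686 to 37717324, and the 10 genes had between 133 and 17620 counts in a library. Values are CPM, counts relative to the library total, after TMM scaling, which sets libraries to a common level by a trimmed mean of gene ratios. Treg and T cell markers were present in every library and mostly higher in Sora-Treg cells. Of 5 Treg markers 4 were called higher, with a median log2FC of 0.81, and of 4 T cell markers 4 were, with a median of 0.46. Foxp3 stood between 252 and 278 CPM over the 6 libraries, and its groups overlapped. The log2FCs of Foxp3 and Cd4, both counted as higher, were only 0.07 and 0.06. In FPKM, counts over gene length and library total, both had a lower mean in Sora-Treg cells. Foxp3 was at 68.5 FPKM in control and 66.6 FPKM in Sora-Treg cells, and Cd4 at 204 and 196 FPKM. Summed B cell markers were between 1.53 and 2.39 CPM in control and between 0.251 and 0.365 CPM in Sora-Treg libraries, and erythroid markers were at most at 0.157 CPM. Summed CD8 T cell markers were between 13.2 and 15.1 CPM in control and between 12.6 and 13.8 CPM in Sora-Treg libraries. The T cell marker Trac and the natural killer cell marker Ncr1 were not found by symbol in the count table. Summed myeloid markers, 8 genes in all, stood at 93.7 and 93.4 CPM in control replicates 1 and 2, at 24.9 CPM in control replicate 3, and between 20.7 and 43.2 CPM in the Sora-Treg libraries. Scaling by library size alone, in place of TMM, shifted the median over all genes by -0.12. It changed the calls over all genes from 4028 lower and 3994 higher to 5614 lower and 2862 higher. Changes of that size are read relative to that shift.

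Promoter stretches that hold the letters of an ATF4 motif are shown first, for genes whose change the results turn on. Binding was not measured, and a match is no more than a match of letters. ATF4 is known to bind, with a C/EBP partner, to a composite element whose core is TGATGNAA, or TTNCATCA on the other strand. A window from 250 bases before to 50 bases after the start site was taken from RefSeq (GRCm38.p6) for all 10 genes by symbol. Trib3 and Chac1 held the core and the other 8 did not, against 4.51% of 27025 gene symbols and 3.97% of 32851 promoters. The windows of 30 bases around each match are given 5′ to 3′ along the gene's strand, with the core in capitals. Those of Asns, Nupr1, Slc7a11 and Atf3, further ATF4 targets, stand beside them.
Chac1: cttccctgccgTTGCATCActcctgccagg
Trib3: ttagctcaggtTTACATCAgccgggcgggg
Asns: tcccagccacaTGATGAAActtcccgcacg
Nupr1: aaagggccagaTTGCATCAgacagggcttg
Slc7a11, first match: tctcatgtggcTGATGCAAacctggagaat
Slc7a11, second match: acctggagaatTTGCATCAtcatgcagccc
Atf3: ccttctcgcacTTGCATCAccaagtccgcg

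In this paragraph the coordinates are those of the windows of 30 bases and the distances are those of the cores. The Chac1 match lies 193 bases before the start site (chr2:119351038-119351067, + strand). The Trib3 match lies 14 bases after it (chr2:152344028-152344057, - strand), in transcribed sequence. The cores of Asns (chr6:7693214-7693243, - strand) and Nupr1 (chr7:126625562-126625591, - strand) begin 23 and 110 bases before the start site. Those of Slc7a11 (chr3:50443661-50443690 and chr3:50443642-50443671, - strand) begin 66 and 47 bases before it, and that of Atf3 (chr1:191183425-191183454, - strand) begins 110 bases before it. Ppp1r15a held the cyclic AMP response element TGACGTCA, a palindrome bound by CREB and ATF dimers, 12 bases before its start site (chr7:45526262-45526291, - strand).
Ppp1r15a: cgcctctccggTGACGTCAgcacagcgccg

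That element was in 2.03% of all symbols (1.79% of all promoters) and in none of the other 9 genes. The ER stress element, bound by ATF6 with NF-Y, was in 0.137% of symbols (0.119% of promoters) and in none of the 10. Because Chac1 fell most of the 10, its whole upstream stretch is shown (chr2:119350992-119351241, + strand, 250 bases ending just before the start site), again with the core in capitals.
Chac1 upstream: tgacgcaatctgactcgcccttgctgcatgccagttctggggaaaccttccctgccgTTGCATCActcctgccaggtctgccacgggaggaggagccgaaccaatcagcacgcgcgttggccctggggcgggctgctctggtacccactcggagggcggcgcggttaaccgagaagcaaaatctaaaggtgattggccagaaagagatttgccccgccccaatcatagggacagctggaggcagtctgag

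Of the 2 kinases at the head of the pathway, Eif2ak3 rose and Eif2ak4 was not called. Eif2ak3, which encodes PERK, stood at 35.3, 32.2 and 34.7 TMM-scaled CPM in the ctrl-Treg libraries and at 43.0, 43.7 and 41.6 CPM in the Sora-Treg libraries. Every Sora-Treg library was above every ctrl-Treg library, and the log2FC was 0.33 ± 0.05 (SE, edgeR adjusted p = 1.17e-05). It was 0.21 under library size alone and 0.19 by limma on log2(FPKM + 1), and called in both. Eif2ak4, which encodes GCN2, stood at 52.6, 52.0 and 50.3 CPM against 51.5, 52.4 and 55.1 CPM. The groups overlapped, and its log2FC was 0.04 with a 95% interval from -0.06 to 0.13 (edgeR adjusted p = 0.477), turning negative with library size alone. Bulk RNA gives an average, so fewer cells that express a gene and less mRNA per cell cannot be told apart for any of these changes.

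**Figure D1:**
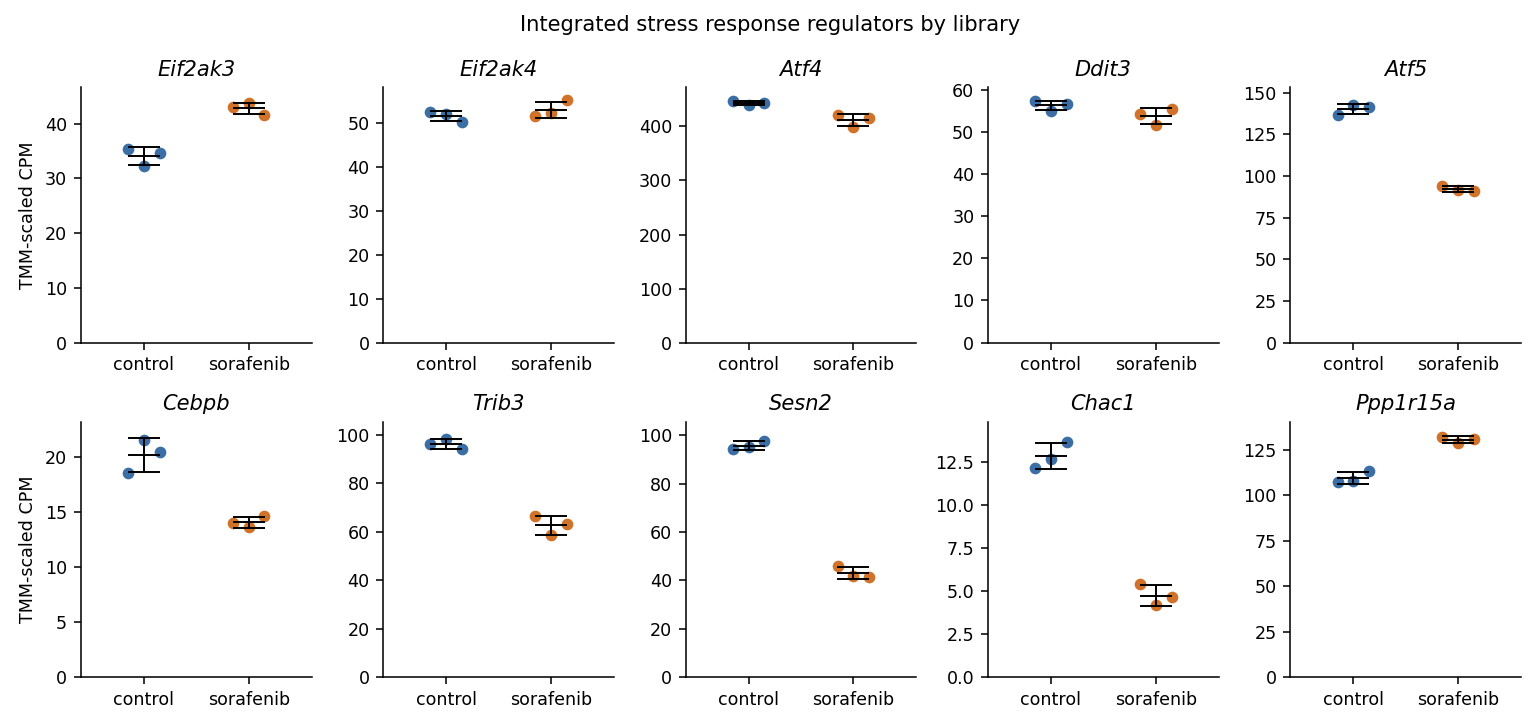
TMM-scaled CPM of each of the 10 genes (vertical axis, starting at 0) in the 3 control (blue) and 3 sorafenib (orange) libraries, with the mean and SD in black. The groups are apart for 8 genes and overlap for Ddit3 and Eif2ak4, and the widest gaps relative to level are those of Chac1 and Sesn2.

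Of the remaining eIF2 kinases, Eif2ak2, the double-stranded RNA sensor PKR, fell by 0.31 ± 0.05 log2 units (SE, edgeR adjusted p = 1.61e-05). Eif2ak1, the heme-regulated kinase HRI, had a log2FC of 0.12 ± 0.04 (SE, edgeR adjusted p = 0.0223). That call was lost with library size alone (0.00), with control replicate 1 or 3 left out (0.11 and 0.11), and with sorafenib replicate 3 left out (0.10). Gcn1, the partner that GCN2 needs on stalled ribosomes, fell by 0.28 ± 0.03 log2 units, and Dnajc3, an inhibitor of PERK and PKR, fell by 0.23 ± 0.04 (SE, edgeR adjusted p = 2.82e-07 and 8.90e-05).

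A list of 22 other genes covers eIF2, its kinases, exchange factor and phosphatases. It also holds the related genes Gcn1, Impact, Dnajc3, Eif2d and Dele1, all lower, and Nck1, Eif2a and Oma1, not called. Of all 22, 11 were lower, 3 higher and 8 not called, with a median log2FC of -0.09. Over all genes tested, 29.9% were lower and 29.7% higher, which is the background for the counts of every list here. None of the 22 was a differentially expressed gene (DEG), which here needs a call together with a log2FC past 1 in size. The alpha and beta subunits Eif2s1 and Eif2s2 fell by 0.26 ± 0.04 and 0.16 ± 0.03 log2 units (SE). Within the exchange factor eIF2B, Eif2b3 fell by 0.46 ± 0.07 log2 units while Eif2b2 rose by 0.34 ± 0.05 (SE). With library size alone 14 of the 22 were lower and 1 higher.

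Atf4 itself was nearly level. It stood at 448, 439 and 443 CPM in ctrl-Treg cells and at 421, 399 and 416 CPM in Sora-Treg cells. The groups did not overlap, but the step was small, with a log2FC of -0.11 ± 0.03 (SE, edgeR adjusted p = 0.00203), and under library size alone it was -0.22. Ddit3 encodes CHOP, the factor tied to death under prolonged stress. It stood at 57.2, 55.0 and 56.6 CPM against 54.2, 51.5 and 55.4 CPM. The groups overlapped, and the log2FC of -0.07 had a 95% interval from -0.16 to 0.03 (edgeR adjusted p = 0.214). With library size alone Ddit3 was called lower, at -0.18 (edgeR adjusted p = 0.00124).

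Atf5 encodes a bZIP factor that is translated like ATF4 and acts in the mitochondrial stress response. Its level was 137, 143 and 142 CPM in ctrl-Treg cells and 94.2, 91.4 and 91.2 CPM in Sora-Treg cells. The gap between the groups was wide against the spread within them, and the log2FC was -0.61 ± 0.04 (SE, edgeR adjusted p = 8.22e-13). Atf5 overlaps Nup62, a nuclear pore gene, which was at 120 and 96.0 mean CPM and changed by -0.32 on the log2 scale. Whether reads were assigned by strand was not stated, so the counts of Atf5 and Nup62 are uncertain. The same holds for Ddit3, which overlaps Mbd6 (log2FC 0.24) and Mars1 (-0.19), while Tulp2, which overlaps Ppp1r15a, was at most at 1.15 CPM.

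Cebpb encodes C/EBPβ, a bZIP factor induced by ATF4 and also a factor of myeloid cells. It stood at 18.5, 21.5 and 20.4 CPM against 14.0, 13.7 and 14.6 CPM. The groups did not overlap, and the log2FC was -0.52 ± 0.08 (SE, edgeR adjusted p = 7.00e-06). Of 7 tested myeloid markers 5 were lower in Sora-Treg cells and 2 were not called. In control replicate 3 the summed myeloid markers were at 24.9 CPM and Cebpb was at 20.4 CPM. With control replicates 1 and 2 both left out the log2FC of Cebpb was -0.53. That fit has 1 control library, assumed to vary like the Sora-Treg libraries, so it is given as a value alone.

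Partner genes of ATF4 went both ways. A list was made mostly of bZIP factors that can pair with ATF4 or share its sites. Of its 10 tested genes, 4 were higher, 4 lower and 2 not called, with a median of 0.01 that was -0.11 under library size alone. Cebpz, one of the 4 lower (log2FC -0.27), is not a bZIP factor. Cebpg, a C/EBP partner of ATF4, fell by 0.34 ± 0.04 log2 units, and Nfe2l1 fell by 0.31 ± 0.03 (SE). Atf3, itself an ATF4 target, stood at 20.1, 17.7 and 17.6 CPM against 24.5, 24.1 and 24.7 CPM. It rose by 0.40 ± 0.07 log2 units (SE, edgeR adjusted p = 4.22e-05), opposite to Chac1 and Trib3, whose promoter windows hold the same core. Fos, an immediate early gene, rose by 0.71 ± 0.04 (SE), and Jun had a log2FC of 0.19 ± 0.03 (SE) that was not called under library size alone. Cebpa and Cebpd were at most at 0.577 and 0.590 CPM and were not called, and Cebpe was below the filter.

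Among the response genes, Chac1 changed most. Chac1 encodes an enzyme that breaks down glutathione. It stood at 12.2, 12.7 and 13.7 CPM in ctrl-Treg cells and at 5.40, 4.17 and 4.66 CPM in Sora-Treg cells. The groups were far apart, and the log2FC was -1.43 ± 0.11 (SE, edgeR adjusted p = 1.73e-10), a 2.70-fold lower level. Chac1 had the fewest counts of the 10, between 133 and 479 counts per library, and its interval was the widest, from -1.67 to -1.20.

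Sesn2 encodes Sestrin 2, a leucine sensor that restrains mTORC1 and is a target of both ATF4 and p53. It stood at 94.2, 94.98 and 97.7 CPM against 46.1, 41.9 and 41.4 CPM. Both groups were tight and far apart, with a log2FC of -1.15 ± 0.05 (SE, edgeR adjusted p = 5.78e-16), a 2.22-fold lower level. Sesn2 and Chac1 were the 2 DEGs among the 10, both lower, where 4.97% of all genes tested were DEGs in that direction.

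Trib3 encodes a pseudokinase that binds ATF4 and AKT and dampens both. It stood at 96.2, 98.3 and 94.3 CPM against 66.3, 58.5 and 63.3 CPM. No library crossed over, and the log2FC was -0.62 ± 0.04 (SE, edgeR adjusted p = 3.11e-11), close to that of Atf5. Ppp1r15a encodes GADD34, the inducible subunit that ends the response by returning phosphatase to eIF2. It stood at 107, 108 and 114 CPM against 132, 129 and 131 CPM. All Sora-Treg libraries were higher, and the log2FC was 0.25 ± 0.04 (SE, edgeR adjusted p = 1.65e-06). Under library size alone it was 0.14 and still called. Across the 10 genes the groups did not overlap for 8, and over all genes tested they did not overlap for 63.7%.

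**Figure D2:**
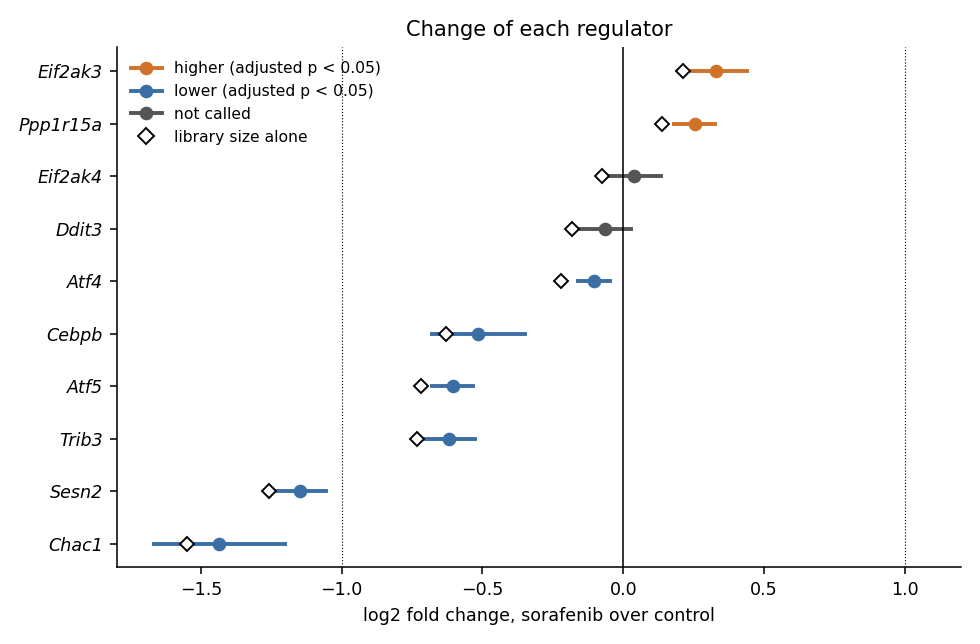
Log2FC of each gene, sorafenib over control (horizontal axis), as filled points with 95% intervals from the edgeR fit, coloured by call, and as open diamonds with libraries scaled by library size alone. Chac1 (-1.43) and Sesn2 (-1.15) lie beyond the dotted line at -1, and the diamonds lie to the left of the points for all 10 genes.

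Paralogues of Sesn2, Trib3, Chac1 and Ppp1r15a had log2FCs nearer to 0 than those genes, though no difference between genes was tested. Of 11 tested genes on the paralogue list, 4 were lower, 2 higher and 5 not called, with a median of -0.09. That list holds relatives of the sestrin, TRIB, CHAC, GADD34 and ATF genes. Other eIF2 kinase and C/EBP genes stand on the lists above. Under library size alone 9 of the 11 were lower and 0 higher, with a median of -0.21. With control replicates 1 and 2 both left out the median was -0.14. Beside the -1.15 of Sesn2, Sesn1, the p53-responsive sestrin, had a log2FC of -0.20 ± 0.05, and Sesn3, a FOXO target, had -0.09 ± 0.04 (SE), which was not called (edgeR adjusted p = 0.0672) but was called with sorafenib replicate 3 left out, at -0.14, and under library size alone, at -0.21. Beside the -0.62 of Trib3, Trib2 had a log2FC of -0.16 ± 0.04 and Trib1 had 0.16 ± 0.05 (SE), the latter not called under library size alone (0.04) nor without control replicate 3 (0.14) or sorafenib replicate 3 (0.15). Chac2, the constitutive relative of Chac1, was low, between 0.983 and 2.41 CPM, with a log2FC of -0.54 ± 0.26 (SE, edgeR adjusted p = 0.0814), and it was called without sorafenib replicate 2, at -0.72. Ppp1r15b, the constitutive counterpart of GADD34, stood at 207, 200 and 203 CPM against 195, 206 and 208 CPM. Its groups overlapped, and its log2FC was -0.00 ± 0.03 (SE, edgeR adjusted p = 0.981), with a sign that changed between scalings and a call under library size alone, at -0.12. Creb1, a relative of Atf4, fell by 0.51 ± 0.04 log2 units (SE), beside the -0.11 of Atf4.

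Levels can be compared between genes only per length, so FPKM, which divides counts by gene length and library total, was used for that. In ctrl-Treg cells Atf4 led at 267 ± 3.25 FPKM (SD, n = 3), followed by Atf5 at 84.1 ± 1.55 FPKM. Ppp1r15a (48.9 ± 1.49 FPKM) and Trib3 (48.8 ± 0.980 FPKM) came next, and their libraries overlapped. Below them were Sesn2 at 37.4 FPKM, Ddit3 at 23.0 FPKM, Cebpb at 13.8 FPKM, Eif2ak4 at 9.59 FPKM, Chac1 at 8.50 FPKM and Eif2ak3 at 7.28 FPKM, with no overlap between neighbours.

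In Sora-Treg cells Atf4 still led, at 229 ± 6.70 FPKM (SD, n = 3), and Ppp1r15a (53.8 ± 0.823 FPKM) had passed Atf5 (51.1 ± 1.03 FPKM). Trib3 was at 29.4 FPKM, and Ddit3 at 20.3 FPKM had passed Sesn2 at 15.6 FPKM. Eif2ak4 (9.10 ± 0.315 FPKM) and Cebpb (8.91 ± 0.310 FPKM) overlapped, Eif2ak3 was at 8.44 FPKM, and Chac1, at 2.91 ± 0.385 FPKM, had moved from the ninth place to the last.

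**Figure D3:**
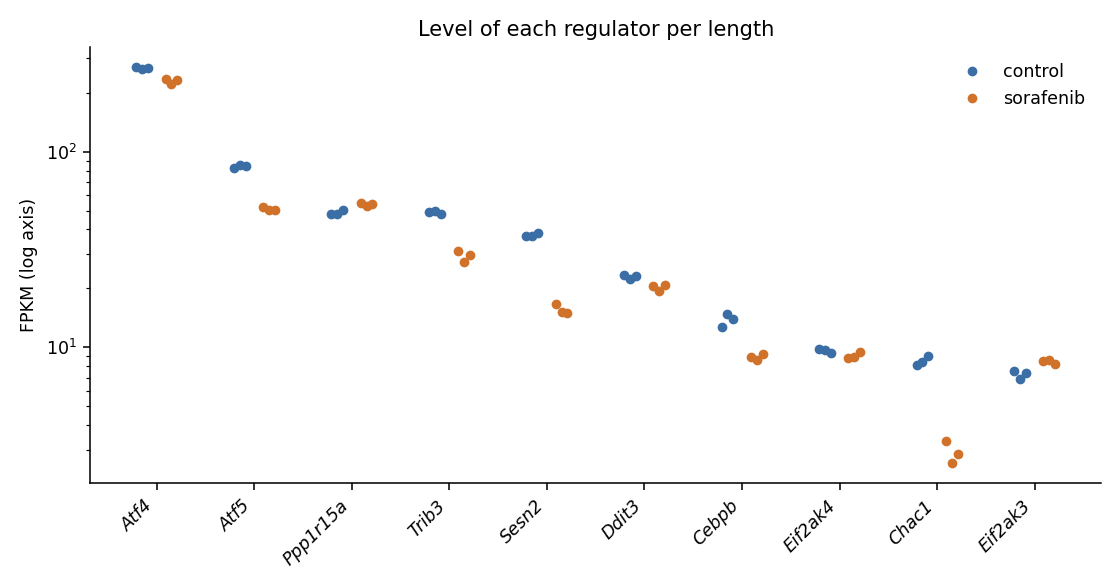
FPKM of the 10 genes (log axis) in each control (blue) and sorafenib (orange) library, ordered by the control mean. The range runs from 267 FPKM for Atf4 to 7.28 FPKM for Eif2ak3 in control cells, and the orange points of Chac1, at 2.91 FPKM on average, are the lowest.

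Because scaling shifts every gene of a library alike, each gene was also expressed as a share of the Atf4 FPKM in the same library, which no scaling can change. Sesn2 went from 14.0 ± 0.325% of Atf4 to 6.80 ± 0.329%, and Chac1 from 3.19 ± 0.199% to 1.27 ± 0.134% (SD, n = 3). Trib3 went from 18.3 ± 0.485% to 12.8 ± 0.465%, and Atf5 from 31.5 ± 0.952% to 22.3 ± 0.490%. These 4 genes and Cebpb, from 5.18 ± 0.439% to 3.89 ± 0.104%, were thus lower relative to Atf4 in every Sora-Treg library.

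The other 4 were higher relative to Atf4. Ppp1r15a went from 18.3 ± 0.621% to 23.5 ± 0.349%, Eif2ak3 from 2.73 ± 0.109% to 3.69 ± 0.175%, and Eif2ak4 from 3.60 ± 0.0806% to 3.97 ± 0.168%. Ddit3 kept closest to Atf4, at 8.63 ± 0.101% and 8.86 ± 0.163% (SD, n = 3). The groups did not overlap for any of the 9 ratios, and the exact two-sided permutation p was 0.1 for each, also when adjusted over the 9, the smallest that 3 libraries against 3 allow, so no ratio could pass a threshold of 0.05. All 9 ratios share Atf4 as their denominator, which was itself lower in Sora-Treg cells. Ddit3 and Eif2ak4, whose ratios did not overlap, did overlap between groups in CPM. Ratios to Atf4 were not taken for all genes tested, so the 9 without overlap have no background share.

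**Figure D4:**
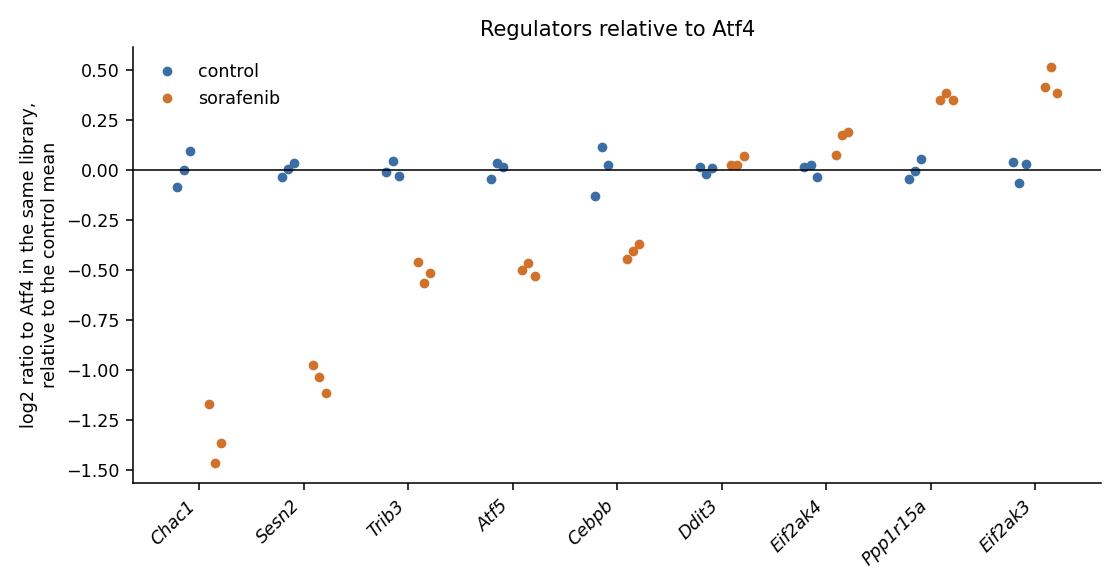
Log2 ratio of each gene to Atf4 in the same library, relative to the control mean (vertical axis), in control (blue) and sorafenib (orange) libraries. Of the 9 genes, 5 lie below the control libraries after sorafenib and 4 above, with Ddit3 nearest to 0.

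The genes whose course over the 6 libraries was nearest to that of Atf4, by Euclidean distance in mean-centred log2 CPM among 9104 genes averaging at least 3 on the log2 CPM scale, were Dgkz, Ankfy1, Rpl10, Rpl35 and Pold3. Their distances ran from 0.0241 to 0.0326. The log2FCs of these genes ran from -0.13 to -0.10, beside -0.11 for Atf4. None of the other 9 regulators was among them. The distance counts the size of a change, so a regulator with a larger or opposite change could not rank near Atf4. Whether the regulators varied together with Atf4 is therefore not decided by this ranking.

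Most genes on the lists of amino acid synthesis and transport, kinds of gene that ATF4 is known to turn on, were lower in Sora-Treg cells. Whether ATF4 controls them in these cells was not tested. Of 15 genes on the list for serine, asparagine, proline and one-carbon synthesis, 12 were lower, 1 higher and 2 not called. The median log2FC was -0.84, and there were 3 DEGs, all lower. The list also holds Cth and Cbs, of cysteine synthesis, and the aminotransferase genes Gpt2 and Got1. Cth was among the 3 DEGs, and Cbs and Got1 were the 2 not called. Asns, which makes asparagine, stood at 205, 204 and 215 CPM against 106, 102 and 110 CPM, a log2FC of -0.97 ± 0.04 (SE, edgeR adjusted p = 1.41e-16). Neither group crossed the other. Phgdh, the entry enzyme of serine synthesis, fell by 1.44 ± 0.03 log2 units, Psat1 by 0.75 ± 0.03 and mitochondrial Mthfd2 by 0.84 ± 0.03 (SE). Cth, which makes cysteine and is named here because it was the lowest of its list, fell by 2.27 ± 0.06 log2 units (SE). Mthfd1l, also of the mitochondrial one-carbon path, was the 1 gene higher and rose by 0.37 ± 0.03 log2 units (SE).

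Of 12 amino acid transporter genes, 9 were lower, 1 higher and 2 not called, with a median of -0.56 and 4 DEGs, all lower. Slc7a11, the cystine importer, stood at 3.91, 3.19 and 2.51 CPM against 0.297, 0.220 and 0.421 CPM. Its Sora-Treg values rest on 9, 7 and 15 counts, and its log2FC of -3.33 ± 0.32 (SE, edgeR adjusted p = 4.27e-09) was the lowest of the list. The glutamine transporter Slc1a5 fell by 0.41 ± 0.03 log2 units and the arginine transporter Slc7a1 by 0.60 ± 0.03 (SE). Slc7a5, which carries leucine, had a log2FC of -0.06 ± 0.03 (SE) and was not called (edgeR adjusted p = 0.0709), but it was called lower under upper quartile scaling (-0.10) and library size alone (-0.175). Slc38a2, a carrier of small neutral amino acids, had a log2FC of 0.11 ± 0.03 (SE) and turned to -0.00 under library size alone.

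Aminoacyl-tRNA synthetases charge tRNAs, whose uncharged form activates GCN2. Of 13 genes on that list, which includes the tRNA exporter Xpot, 12 were lower and 1 not called, with a median of -0.40 and no DEG. Eprs fell by 0.45 ± 0.03 log2 units, Nars by 0.55 ± 0.03 and Iars by 0.22 ± 0.03 (SE). Sars was not called, at a log2FC of 0.04 ± 0.03 (SE, edgeR adjusted p = 0.258), and turned negative under upper quartile scaling (-0.00) and under library size alone, where it was called lower (-0.08, edgeR adjusted p = 0.0174). Over the lists, the TGATGNAA core was in the promoter window of 5 of 9 synthetase genes matched by symbol, 3 of 12 synthesis genes, 2 of 8 transporter genes, 3 of 13 other ATF4 and CHOP targets, 2 of 8 bZIP genes and 1 of 17 eIF2 genes. It was in 0 of 8 paralogues, 0 of 18 genes of the IRE1 and ATF6 branches and 0 of 12 p53 genes, and in 4.51% of all 27025 symbols. Among the list genes with the core, Vldlr, Atf3 and Jdp2 were called higher, with log2FCs of 0.97, 0.40 and 0.26. Got1 was not called, and the others were called lower.

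The remaining ATF4 and CHOP targets were mixed, with 8 of 16 higher, 6 lower and 2 not called, and a median of 0.11. Under library size alone the balance turned, with 4 higher, 7 lower and a median of -0.00. With control replicates 1 and 2 both left out the median was 0.11. Nupr1, a small stress-induced chromatin protein, stood at 16.6, 14.6 and 16.2 CPM against 7.94, 7.56 and 8.20 CPM, a log2FC of -0.997 ± 0.0911 (SE, edgeR adjusted p = 2.30e-09). Tnfrsf10b, a death receptor gene, was the 1 DEG lower and fell by 1.08 ± 0.05 log2 units (SE), and it is named for that. What lowered it was not tested. In the other direction Ero1a, an oxidase of the endoplasmic reticulum, rose by 1.39 ± 0.03 log2 units and Vegfa by 0.78 ± 0.03 (SE). Both are also targets of the hypoxia factor HIF-1. Sqstm1, an autophagy receptor, had a log2FC of 0.16 ± 0.03 (SE) and was not called under library size alone. Ddit4, an mTORC1 inhibitor, had a log2FC of 0.06 ± 0.03 (SE), which turned to -0.05 under library size alone and was not called with control replicate 1 or 3, or sorafenib replicate 2 or 3, left out (0.06, 0.06, 0.06 and 0.07).

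PERK shares the unfolded protein response with the sensors IRE1 and ATF6. Beside the 0.33 of Eif2ak3, Ern1, which encodes IRE1, had a log2FC of 0.22 ± 0.07 (SE, edgeR adjusted p = 0.00971) that was not called under library size alone, and Atf6 had -0.01 ± 0.05 (SE, edgeR adjusted p = 0.845) and was called lower under library size alone, at -0.13. Of 22 genes of the IRE1 and ATF6 branches, 7 were higher, 10 lower and 5 not called, with a median of -0.02 and no DEG. Under library size alone 2 were higher and 15 lower, with a median of -0.13. With control replicates 1 and 2 both left out the median was -0.03. Xbp1, the factor spliced by IRE1, rose by 0.62 ± 0.03 log2 units, and its target Dnajb9 rose by 0.75 ± 0.10 (SE). The chaperone genes Hspa5 and Hyou1 fell by 0.29 ± 0.02 and 0.54 ± 0.03 log2 units (SE). Calr, Hsp90b1 and Canx, also chaperones, had log2FCs of 0.10 ± 0.02, 0.10 ± 0.02 and 0.07 ± 0.03 (SE), each negative under library size alone. Xbp1, Ern1, Atf6, Dnajb9 and Hyou1 were picked for naming after their values had been seen.

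Sesn2 is also a p53 target, and genes of that list moved with it. Of 15 p53 genes, 14 were lower and 1 higher, with a median of -0.40 and 4 DEGs, all lower. The gene above 0 was Ddit4, which stands on both lists and turned negative under library size alone. Trp53 itself fell by 0.59 ± 0.04 log2 units, Ccng1 by 0.69 ± 0.03, Cdkn1a by 0.29 ± 0.03 and Trp53inp1 by 0.40 ± 0.04 (SE). Gtse1, the lowest of the list, fell by 1.41 ± 0.04 log2 units (SE), and it and Trp53 are named after their values had been seen. Their part in the result for Sesn2 was not tested.

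Over the 9 lists together, 132 genes were tested, of which 81 were lower and 26 higher. Over all 13463 genes tested, 29.9% were lower and 29.7% higher. The lists, which include those of p53 targets and paralogues, were chosen with earlier results of these data known. Their counts are thus no independent test against that background. On the lists, the number higher was 10 under library size alone, where 5614 of all genes were lower and 2862 higher.

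**Figure D5:**
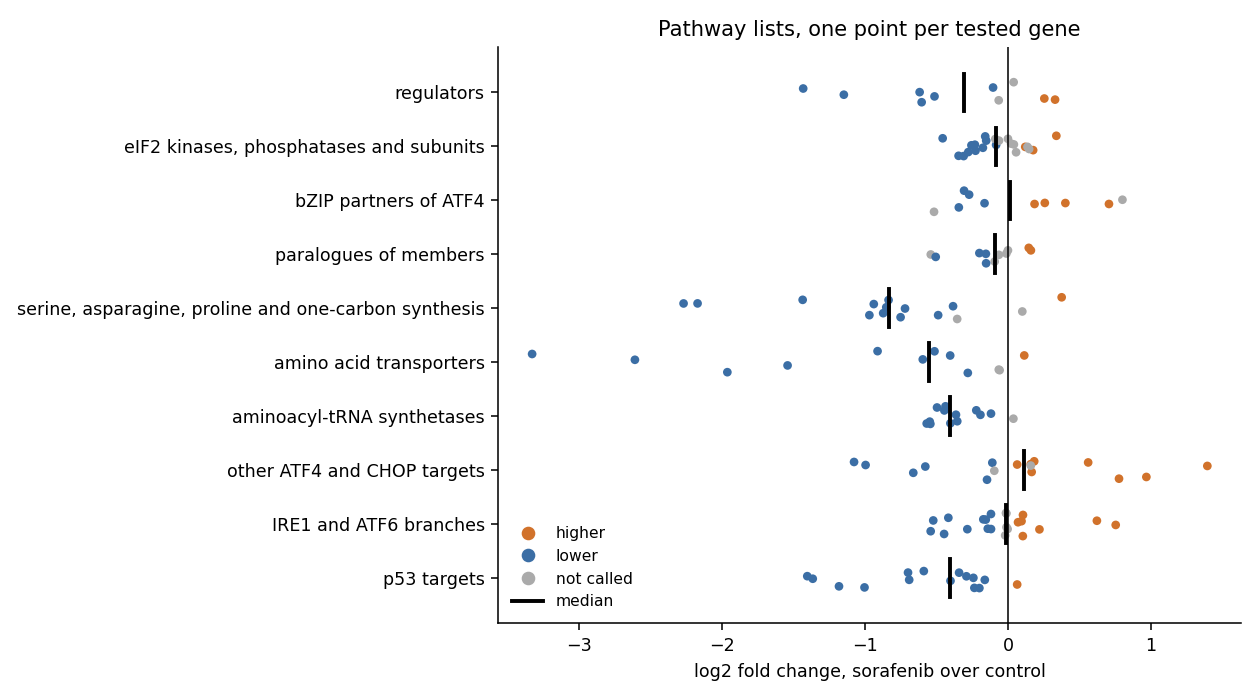
Log2FC, sorafenib over control (horizontal axis), of each tested gene of 9 pathway lists and of the 10 regulators, coloured by call, with the list median as a black bar. The medians of the synthesis (-0.84), transporter (-0.56), synthetase (-0.40) and p53 (-0.40) lists lie below that of the regulators (-0.31), and the other medians lie near 0.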

How the data were processed

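RNA-seq libraries of 3 control and 3 sorafenib-treated Treg samples were grouped by their titles. The authors deposited gene counts, not normalized, and FPKM values for 22939 genes. Each FPKM was the count over the library total and a fixed gene length (largest relative difference of the implied length 1.64e-06). The submitters' processing notes name fastp, HISAT2, HTSeq, R 3.2.0, DESeq2 and GRCm39, while the methods of the study name Bowtie2, GRCm38 and expectation maximization. Which made the counts, and whether strand was used, is not settled. Sequences and coordinates are from RefSeq on GRCm38.p6 by symbol.

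Counts were tested with edgeR 4.0.16 in R 4.3.3 (quasi-likelihood test, TMM, filterByExpr, no covariate), with Benjamini-Hochberg adjustment over 13463 genes. A call needs an adjusted p under 0.05, and a DEG also a fold change past 1 on the log2 scale. SE is the one implied by the F statistic. Total counts per library were 30727686 to 37717324, and 3 counts corresponded to 0.0762 to 0.0989 CPM, for counting error only. Replicates differed by more than sampling noise (chi-square per degree of freedom 3.36 to 5.91).

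The 10 genes and all lists were chosen with earlier results of these data known. Named genes were the 10, any of the eIF2, bZIP and paralogue lists, the 4 most abundant of every other list, Asns, Ddit4, Nupr1, Slc7a11, and the 5 nearest to Atf4. Others were chosen after their values were seen. There were 18 alternatives. They were 3 scalings (RLE, upper quartile, library size alone), 2 filters, DESeq2 1.42.0, a robust fit, a replicate block, 6 fits with a library left out, and limma 3.58.1 on log2(FPKM + 1), with and without a filter, or log2(FPKM + 0.1). Leaving out control replicates 1 and 2 together was chosen after seeing the data, and leaves 1 control library, assumed to vary like the other group.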

Additional observations from a re-analysis of the deposited data

How the results depend on the processing

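Of the 10 regulators, 8 kept their direction and their side of the threshold under the 18 alternatives. In the fit with 1 control library, direction alone was compared. The exceptions were Ddit3 and Eif2ak4. Under library size alone and under limma on log2(FPKM + 0.1), on log2(FPKM + 1) without a filter and on log2(FPKM + 1), whose values are scaled by library totals, Ddit3 was called lower, at -0.181, -0.181, -0.174 and -0.174. Eif2ak4 turned to -0.0764, -0.0759, -0.0693 and -0.0693 and was not called. Over all genes, the 3 limma fits called 2350, 2577 and 2357 genes higher, against 3994, and gave 371, 185 and 189 DEGs lower, against 669. Over the 132 tested genes of the pathway lists, 26 were higher, which became 10 under library size alone and each limma fit, and 16 with control replicates 1 and 2 both left out. The number lower was 81 and ranged from 68 to 96.

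Reversals under library size alone and the 3 limma fits, in the order above, were -0.00216, -0.00171, -0.00168 and -0.00168 for Slc38a2; -0.0781, -0.078, -0.0774 and -0.0774 for Sars; -0.0517, -0.0515, -0.0513 and -0.0513 for Ddit4. They were -0.0111, -0.0115, -0.0115 and -0.0115 for Calr, -0.0122, -0.0121, -0.012 and -0.012 for Hsp90b1, and -0.0458, -0.0459, -0.0456 and -0.0456 for Canx. Sars was -0.000606 under upper quartile scaling, and was called lower under library size alone, log2(FPKM + 0.1) and filtered log2(FPKM + 1). Ppp1r15b was 0.00294 with a CPM filter, 0.00134 by DESeq2, 0.00336 with RLE, 0.00355 without control replicates 1 and 2, and between -0.0168 and 0.0284 with a library left out, positive without control replicate 1 (0.0164) or sorafenib replicate 1 (0.0284). Atf6 lay between -0.0357 and 0.0154, the latter without sorafenib replicate 1, and Cebpa was 0.0445 without control replicates 1 and 2. The cause was not tested beyond the scaling itself.

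With each library left out in turn, log2 fold changes ranged from -0.117 to -0.0804 for Atf4, -1.53 to -1.35 for Chac1, -1.2 to -1.12 for Sesn2 and 0.292 to 0.36 for Eif2ak3. The shared replicate numbers did not pair the samples (correlations of -0.0438, 0.0591 and 0.0299), and with the replicate block 6 of the 10 were lower and 2 higher, 4064 of all genes were lower and 4057 higher, and Sesn3 was called at -0.0961. With 3 libraries a group and no protein measured, changes near 0.1 on the log2 scale depend on the scaling chosen.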
